A study of Mus musculus with 15 samples.

Results

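The splicing factor genes of the mouse kidney arrays were taken as every gene with a probe set of its own whose symbol starts with Snrp, Srsf, Sf3a, Sf3b or Lsm, together with Tra2a and Tra2b. This gave 46 of 19938 genes. They have 66 probe sets, and for the 12 genes with more than 1 the probe set brightest over all 15 arrays was used. Snrpf and Snrpn are not among them, because each shares its probe set with another gene. Lsmem1 and Lsmem2 match by their letters only: they encode membrane proteins, are not known as splicing genes, and are kept in the counts.

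All mice had an unspecified strain. The 4 metanephric mesenchyme (MM) cells, numbered 14, 15, 16 and 19, were single cells of embryonic day 11.5 picked by hand under a fluorescence microscope from embryos with a Crym-EGFP transgene. The 5 juxtaglomerular (JG) cells, numbered 4 to 8, were single fluorescent cells from beside the glomeruli of adult males with a renin reporter, which the labels name Ren1c-YFP in one place and Ren1d GFP in another. The same adult reporter line gave renal cortex, a mixture of cell types cut with a scalpel: 3 libraries were diluted and amplified by the single cell protocol used for the cells (SCAMP, 32 rounds), and 3 were labelled by a standard NuGEN kit (1 round). The labels give no animal for any cell, and the cells of a group are therefore treated as 1 sample, without a test.

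The spliceosome removes introns from nuclear transcripts. Its building blocks are small nuclear ribonucleoproteins (snRNPs), in which a ring of Sm proteins holds the U1, U2, U4 or U5 RNA, while a ring of LSM proteins holds U6. SF3a and SF3b are parts of the U2 particle that settle it on the branch point, and SR and TRA2 proteins bind exons and help to define which of them are kept. All these proteins are general machinery that nucleated cells are known to need, including those of the kidney.

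Upstream sequences are shown for the genes on which the comparison of MM and JG cells turns: Snrpe, Srsf9 and Tra2a at its ends, and Snrpg as a gene that was bright in a single JG cell. Each is the 250 bases before the RefSeq start site on the strand of the gene (RefSeq, assembly GRCm38.p6), 5′ to 3′, with matched motifs in capitals. The windows lie at chr1:133610281-133610530 (minus strand) for Snrpe, chr5:115326927-115327176 (plus strand) for Srsf9, chr6:49264053-49264302 (minus strand) for Tra2a and chr6:86371290-86371539 (plus strand) for Snrpg.
Snrpe: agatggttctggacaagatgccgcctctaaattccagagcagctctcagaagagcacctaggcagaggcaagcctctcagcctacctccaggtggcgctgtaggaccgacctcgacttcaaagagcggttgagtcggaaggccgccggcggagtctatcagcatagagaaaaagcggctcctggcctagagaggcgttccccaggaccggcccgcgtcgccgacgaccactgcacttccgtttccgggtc
Srsf9: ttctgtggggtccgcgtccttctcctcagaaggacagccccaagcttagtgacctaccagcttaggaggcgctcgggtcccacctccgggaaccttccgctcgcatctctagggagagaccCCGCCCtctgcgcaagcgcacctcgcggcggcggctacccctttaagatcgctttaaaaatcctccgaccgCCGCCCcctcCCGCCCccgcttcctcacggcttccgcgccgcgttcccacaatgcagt
Tra2a: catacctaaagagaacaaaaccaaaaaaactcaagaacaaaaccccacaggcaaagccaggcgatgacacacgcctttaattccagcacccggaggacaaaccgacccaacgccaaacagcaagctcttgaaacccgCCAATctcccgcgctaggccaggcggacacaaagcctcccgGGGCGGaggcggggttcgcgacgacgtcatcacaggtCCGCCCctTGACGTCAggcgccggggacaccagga
Snrpg: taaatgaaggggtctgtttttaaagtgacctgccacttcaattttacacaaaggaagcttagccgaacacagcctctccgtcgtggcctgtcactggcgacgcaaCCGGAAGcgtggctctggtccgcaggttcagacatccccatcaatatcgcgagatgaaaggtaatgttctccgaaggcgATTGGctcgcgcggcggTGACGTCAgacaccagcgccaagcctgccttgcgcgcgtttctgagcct
Motifs were searched by exact letters on both strands, and none contains another. CCGGAAG stands for ETS factors and GGGCGG for the SP1 box. The cAMP response element (CRE) was searched as TGACGTCA and the E-box as CACGTG. The CCAAT box was searched by its name, and the TATA box as TATAAA. No letters of these motifs were found in the Snrpe window. The Srsf9 window held 3 SP1 boxes. Tra2a had a CRE, a CCAAT box and SP1 boxes, and Snrpg had an ETS match, a CCAAT box and a CRE.

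The table of upstream sequences held 46 windows for 39 of the 46 genes. The ETS letters were in 16 of these windows (34.8%), against 6.91% of all 32851 windows of the table and 8.98% of the 21262 windows of protein-coding genes. The SP1 box was in 67.4%, against 32.7% and 42.6%. The CRE was in 4 windows (8.7%), of Lsm2, Snrpa, Snrpg and Tra2a, against 1.55% and 1.92%. The TATA letters were in 8.7%, against 12.4% and 11.6%. The E-box was in 4.35%, against 6.02% and 6.63%, and the CCAAT letters were in 30.4%, against 33.8% and 35.4%. The windows of the splicing factor genes had a median of 60.8% G and C and 19 CG dinucleotides, against 55.6% and 10 in windows of protein-coding genes. Their richness in G and C bears on the counts of GC-rich letters, and its part in them was not tested. A match is a description of letters and not a site.

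Signals are log2 values as deposited. A gene was called above background on an array where it exceeded the 99th percentile of 1193 olfactory and vomeronasal receptor probe sets on that array. This level was 7.15 to 7.57 on the arrays of MM cells and 7.56 to 7.94 on those of JG cells. On the 6 cortex arrays it was lower, from 6.19 to 6.52. Receptor medians followed, with 4.86 to 5.26 for MM cells, 5.04 to 5.36 for JG cells and 4.15 to 4.22 for cortex. Markers of the labelled tissue were checked first. In cortex, 10 of 10 proximal tubule markers were above background in all 6 libraries, against at most 2 in any MM cell and at most 3 in any JG cell. MM cells had 2 to 5 of 10 MM markers above background, with Hoxd11 in all 4 cells and Six2 in cells 14 and 16, and JG cells had 0 to 6. Cortex libraries had 4 to 6 of them, and Hoxd11 was also above background in JG cells 6 and 8 and in all 6 cortex libraries. Of 4 measured JG markers, Crip1 was above background in every JG cell and the other 3 in none, and the renin gene Ren1 had no probe set of its own. Crip1 was above background in MM cell 15 and in all 6 cortex libraries too, so its background call did not set JG cells apart. The summed level of the 4 markers did, with no receptor shift taken off. It was 29.8 to 30.7 in JG cells and 23.9 to 25.2 in MM cells. The highest cortex library, standard-labelled B, reached 28.53. The level of Crip1 alone is not given. Leukocyte markers were at background in all 9 cells.

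More splicing factor genes were detected in each embryonic cell than in any adult JG cell. Of the 46 genes, 34 were above background in MM cell 14 (20.5% of all genes), 29 in cell 15 (15.6%), 20 in cell 16 (10.8%) and 33 in cell 19 (20.8%). In JG cells the counts were 5 in cell 4 (9.04% of all genes), 6 in cell 5 (6.7%), 12 in cell 6 (9.63%), 15 in cell 7 (10.7%) and 10 in cell 8 (14.2%). The members' shares in JG cells 4 and 5, 10.9% and 13.0%, lay near those of all genes. Fewer genes of any kind were above background in most JG cells, and the part of this in the lower counts was not tested. The JG counts depended on the percentile: above the 95th percentile of the receptors were 16, 12, 18, 21 and 18 members in JG cells 4 to 8, where 25.1%, 29%, 29.4%, 34% and 37.1% of all genes were. In MM cells 14, 15, 16 and 19 they were 39, 34, 26 and 36, beside 41.5%, 35.6%, 29.8% and 38.5% of all genes. All 6 cortex libraries had 42 of the 46 above background, where the share of all genes was 50.4%, 48.2% and 48.2% in diluted libraries A, B and C and 43.7%, 48.1% and 47.8% in standard-labelled ones.

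**Figure D1:**
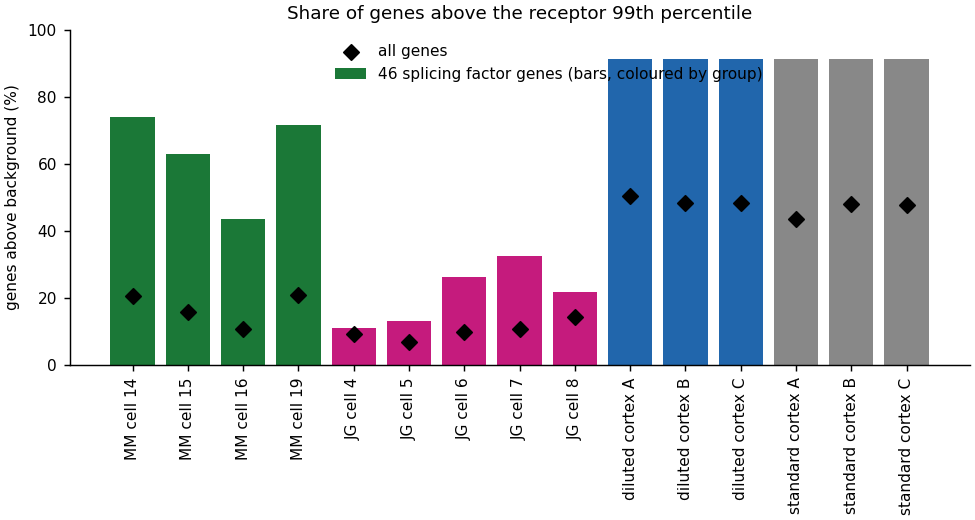
Share of genes above background on each array (percent, y axis) for the 46 splicing factor genes (bars, coloured by group) and all 19938 genes (diamonds). Bars reach 43.5% to 73.9% for MM cells, stay at 10.9% to 32.6% for JG cells and are 91.3% for every cortex library.

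Genes detected in cortex were used as a closer base for the cells. Of the 9138 genes above background in all 3 diluted cortex libraries, 42 are splicing factor genes. Among the 9138, 40.6%, 30.9%, 20.1% and 40.5% were above background in MM cells 14, 15, 16 and 19, where 34, 29, 20 and 33 of the 42 were. In JG cells 4 to 8 the shares were 16.2%, 12.6%, 18.0%, 21.1% and 24.7%, beside 5, 6, 12, 15 and 10 of the 42. A transcript that was missing from a cell and one that was lost in amplification give the same low signal here, and they cannot be told apart.

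The set above background in all 4 MM cells had 15 members (6.52% of all genes passed this rule): Snrpb, Snrpd1, Snrpd2, Snrpe and Snrpg of the Sm ring, the U1 proteins Snrpa and Snrpc, Sf3b4 and Sf3b5, Lsm4, Lsm5 and Lsm7, the SR genes Srsf2 and Srsf9, and Tra2a. The 7 that were above background in no MM cell were Sf3a1, Srsf5, Srsf12, Lsm12, Lsm14b, Lsmem1 and Lsmem2 (69.5% of all genes). In JG cells, 23 members were above background in no cell (78.8% of all genes) and 13 in exactly 1 (8.88% of all genes). Snrpa, Snrpb, Snrpd1 and Tra2a were above it in all 5 JG cells (3.32% of all genes). Snrpe and Srsf9 were above it in every MM cell and in no JG cell, which 65 of all genes were (0.326%). These calls are of the probe set used for each gene. On another Snrpc probe set the lowest MM cell was at 6.16, below background and below the highest JG cell (7.52). On the Tra2a probe set that lists RefSeq mRNAs, every cell of both groups was at background (5.35 to 6.38).

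**Figure D2:**
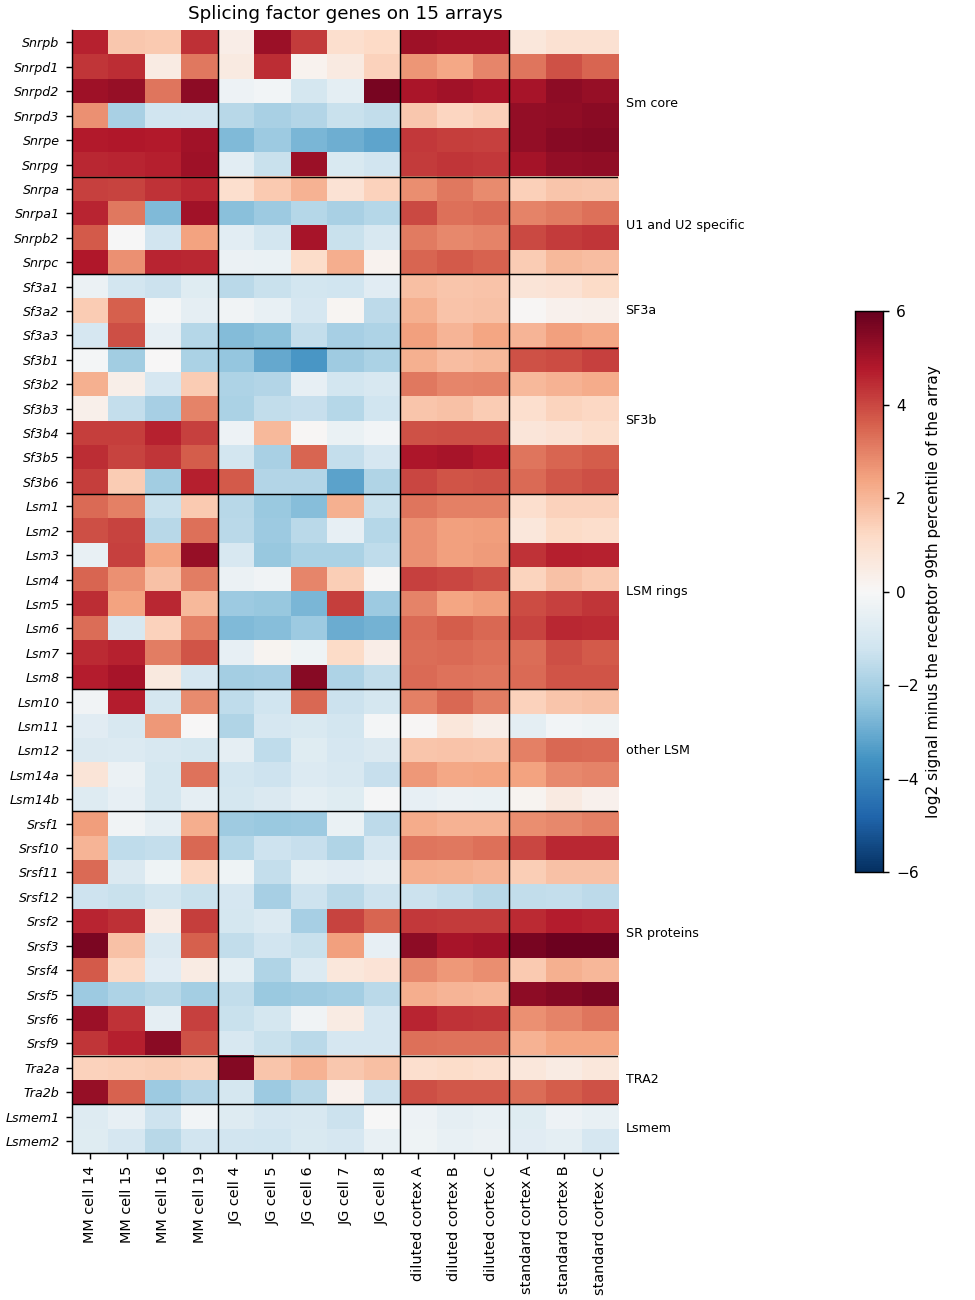
Signal of the 46 splicing factor genes (rows, grouped by role) on the 15 arrays (columns), as log2 units above (red) or below (blue) the receptor 99th percentile of the same array. MM cells 14, 15 and 19 are mostly red, JG cells mostly blue with single red cells for genes such as Snrpg and Lsm8, and the 3 libraries of each cortex group look alike.

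Most splicing factor genes had more signal in embryonic MM cells than in adult JG cells, both amplified by the single cell protocol, with the Sm protein gene Snrpe and the SR gene Srsf9 farthest apart. Tra2a alone was lower by more than the limit used, and that call was lost without JG cell 4, with group medians and with the mean of its probe sets. Receptor probe sets were lower by 0.21 log2 units in MM cells (median), and a gene was counted as higher or lower where its difference of group means lay at least 1 log2 unit beyond that shift. Of the 46 genes, 36 were higher in MM cells (10.8% of all genes) and 1, Tra2a, was lower (0.732% of all genes). The median difference was 1.73 over the 46 genes and -0.19 over all genes. Among the 9138 genes detected in diluted cortex 22.1% were higher in MM cells, and 36 of the 42 splicing factor genes among them were. Every MM cell lay above every JG cell for 7 members (1.13% of all genes) and below every JG cell for Tra2a and Lsmem2 (6.86% of all genes).

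Of the Sm ring, 5 of 6 genes were higher in MM cells. Snrpe, which encodes the SmE protein of the ring, measured 11.90, 12.23, 12.32 and 12.20 in MM cells 14, 15, 16 and 19. In JG cells 4 to 8 it measured 5.10, 5.77, 5.02, 4.75 and 4.40. The groups were far apart, with every JG cell below the background level and the MM cells nearly equal, at a difference of 7.15 (mean 12.16 ± 0.18, SD over 4 cells, against 5.01 ± 0.51, SD over 5 cells). Since every JG cell was at background, the size of this difference also depends on the background signal of the probe set. Snrpg, which encodes SmG, measured 11.68, 11.97, 12.25 and 12.22 in MM cells and 7.10, 6.62, 12.90, 6.79 and 6.43 in JG cells. JG cell 6 exceeded all MM cells and the other JG cells were at background, which gave a difference of 4.06 with an SD of 2.77 over the JG cells.

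Snrpd2, which encodes SmD2, had the same shape with another cell. Its MM values were 12.23, 12.64, 10.80 and 12.52, and its JG values were 7.43, 7.77, 6.69, 7.13 and 13.24, so that JG cell 8 alone stood out. Snrpb, which encodes SmB, was the Sm gene with the smallest difference, 0.25. It measured 11.78, 9.04, 9.14 and 11.52 in MM cells and 8.13, 13.05, 11.96, 8.72 and 8.74 in JG cells. These groups overlapped, and both had cells near 9 and cells above 11. Snrpd3, for SmD3, was above background in MM cell 14 only, at 9.91 against 5.47 to 6.38 in the other 3 MM cells and 5.99 to 6.38 in JG cells. Its means, 6.94 in MM and 6.10 in JG cells, both lay below background. Its count as higher, at 1.05 beyond the shift, thus rests on MM cell 14.

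Among proteins of single snRNPs, 3 of 4 were higher in MM cells. Snrpa, the U1 protein that binds a stem loop of U1 RNA, was above background in all 9 cells, at 11.24, 11.45, 11.89 and 11.68 in MM cells and 8.74, 9.49, 9.82, 8.57 and 8.92 in JG cells. The groups did not overlap, and their means differed by 2.46. Snrpa1, a U2 protein, measured 11.74, 10.58, 4.92 and 12.18 in MM cells. MM cell 16 was as low as the JG cells, which lay at 5.21 to 6.03, and the difference of 4.13 came with an SD of 3.36 over the MM cells. Snrpb2, which pairs with Snrpa1 on U2, differed least, by 0.63, with JG cell 6 at 12.72 above every MM cell (6.44 to 10.83).

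In SF3a 2 of 3 genes were higher in MM cells, and in SF3b 6 of 6. Sf3b5, a small SF3b subunit, measured 11.58, 11.48, 11.87 and 10.80 in MM cells and 6.64, 5.98, 11.26, 6.27 and 6.55 in JG cells. JG cell 6 lay within the MM range and the other JG cells were at background. Sf3b4, which binds pre-mRNA next to the branch point, measured 11.29, 11.54, 12.17 and 11.23 in MM cells, above all JG cells (7.41, 9.89, 7.81, 7.30 and 7.41). On its second probe set the groups overlapped, at 8.17 to 10.94 in MM and 7.07 to 8.89 in JG cells (difference 1.68). Sf3b1, the large subunit that contacts the branch region, barely crossed background in MM cell 16 only (7.570 against a level of 7.567), and its JG values were 4.28 to 5.68. Its means, 6.29 in MM and 5.16 in JG cells, both lay below background, so its count as higher rests on signal near background. Sf3b3 had the smallest difference of SF3b, 1.09, with MM cell 19 at 10.14 and the other MM cells at 5.59 to 7.46. In SF3a, Sf3a3 was high in MM cell 15 alone (11.29) and lay at 5.44 to 7.08 in the other MM cells, while Sf3a1 was at background in all 9 cells.

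All 8 genes of the LSM rings were higher in MM cells. LSM2 to LSM8 form the ring on U6 RNA in the nucleus, and LSM1 replaces LSM8 in a cytoplasmic ring that takes part in mRNA decay. Lsm3 measured 6.70, 11.53, 9.94 and 12.36 in MM cells and 6.76, 5.65, 5.87, 5.78 and 6.02 in JG cells. Of the MM cells, cell 14 lay among the JG cells, and the difference was 4.11. Lsm6 measured 10.52, 6.44, 8.93 and 10.19 in MM cells, while JG cells lay at 4.70 to 5.58, with no overlap. Lsm4 differed least in this group, by 1.57, at 10.65, 10.14, 9.31 and 10.24 in MM cells and 7.39, 7.74, 10.68, 9.18 and 7.62 in JG cells, where JG cell 6 exceeded all MM cells. Lsm7 was above background in all MM cells (10.64 to 12.03) and in 3 JG cells (7.25 to 8.83 over all 5), with no overlap.

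Of 5 LSM genes outside these rings, 1 to 3 were above background in an MM cell and 0 or 1 in a JG cell. Lsm10 and Lsm11 belong to the U7 particle that trims histone transcripts. Lsm10 had the largest difference of them, 1.47, at 6.94, 12.10, 6.53 and 9.98 in MM cells and 6.23, 6.75, 11.20, 6.39 and 6.51 in JG cells, and the groups overlapped. Lsm11 barely counted as higher, at 1.01 beyond the shift, with MM cell 16 at 10.16 and the other MM cells at 6.44 to 7.17. Lsm12 and Lsm14b were at background in all 9 cells, as were Lsmem1 and Lsmem2, and their differences (-0.61 to -0.27) describe background signal.

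Of the 10 SR genes, 8 were higher in MM cells. Srsf9, an SR protein that acts on alternative exons, measured 11.46, 12.07, 12.97 and 10.95 in MM cells and 6.76, 6.59, 6.16, 6.67 and 6.57 in JG cells. All JG cells were at background and all MM cells far above, at a difference of 5.31 (11.86 ± 0.87 against 6.55 ± 0.23). Srsf2 measured 11.73, 11.79, 8.02 and 11.29 in MM cells and 6.67, 7.13, 5.78, 11.75 and 11.07 in JG cells. JG cells 7 and 8 matched the bright MM cells, so the groups overlapped. Srsf5 was at background in every cell, between 4.97 and 5.90 in MM cells and between 5.63 and 6.25 in JG cells.

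**Figure D3:**
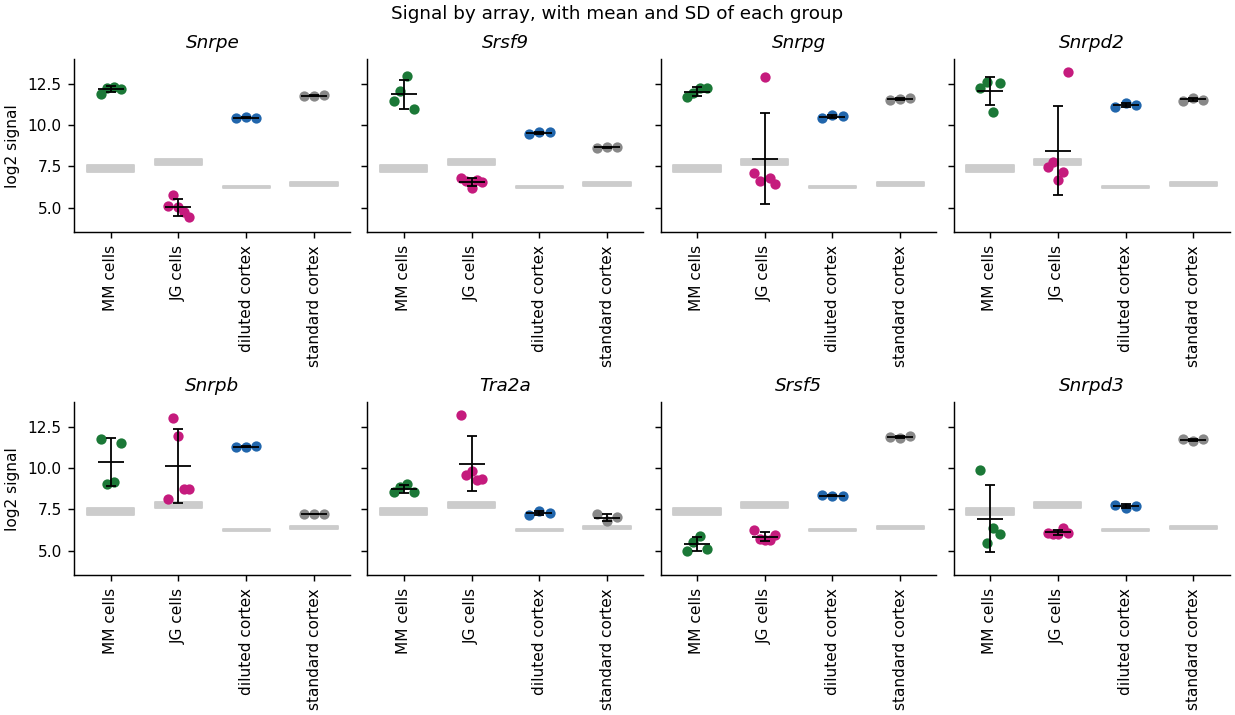
log2 signal (y axis) of 8 splicing factor genes on each array (points), with the mean and SD of each group (black) and the range of the receptor 99th percentile in that group (grey band). Snrpe and Srsf9 separate MM from JG cells, 1 JG cell stands above the rest for Snrpg, Snrpd2 and Tra2a, and the cortex groups lie far apart for Snrpb, Srsf5 and Snrpd3.

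TRA2 proteins bind purine-rich exon sequences and promote inclusion of the exon. Tra2a was the only member lower in MM cells, at 8.55, 8.84, 9.03 and 8.54 in MM cells against 13.25, 9.61, 9.84, 9.31 and 9.37 in JG cells. The groups did not overlap, but the difference of -1.54 rested on JG cell 4 for its size and was -0.79 without it, which is no longer beyond 1 log2 unit. The probe set behind these values lists 2 cDNA accessions and no RefSeq mRNA. Another Tra2a probe set does list RefSeq mRNAs, and it was at background in all cells, between 5.35 and 6.24 in MM and between 5.53 and 6.38 in JG cells. It was above background in cortex, with 7.73 to 8.24 in the diluted libraries and 8.21 to 8.47 in the others. The 2 probe sets thus ran opposite ways (Pearson r = -0.77 over the 15 arrays, as a description). Tra2b measured 12.38, 10.95, 5.41 and 5.38 in MM cells, while JG cells lay at 5.74 to 7.94, so that 2 MM cells were bright and 2 were at background.

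Of the 13 members above background in exactly 1 JG cell, 5 were in cell 6 (Lsm8, Lsm10, Snrpb2, Snrpg and Sf3b5), 6 in cell 7 (Lsm1, Lsm5, Sf3a2, Srsf3, Srsf6 and Tra2b), 1 in cell 4 (Sf3b6) and 1 in cell 8 (Snrpd2). In 9 of the 13 the bright cell exceeded the mean of diluted cortex, with no receptor shift taken off. The largest excess was 3.68, for Lsm8 in JG cell 6 (13.23 against 5.70 to 6.07 in the other JG cells). For Lsm1 (0.47) and Sf3b5 (0.14) the excess was smaller than the receptor shift of 1.03 between JG cells and diluted cortex. The share of all genes that did so was not counted. Others barely crossed the background level of 7.70 in JG cell 7: Sf3a2 reached 7.82 there (up to 7.51 in the other JG cells), Tra2b 7.94 and Srsf6 8.19 (up to 7.54 in the others). MM cell 16 was the MM cell that lacked most: Lsm1, Lsm2, Sf3b2, Sf3b6, Snrpa1, Srsf3, Srsf4 and Srsf6 were above background in the other 3 MM cells and not in it. It also had the fewest of all genes above background, 10.8% against 15.6% to 20.8% in the other MM cells. The share of all genes missing from cell 16 alone was not counted. The median SD of a member was 1.59 over MM cells and 0.60 over JG cells, against 0.33 for the median gene in either group, and 0.09 over diluted libraries. Most genes were above background in no MM cell (69.5%) or in no JG cell (78.8%), so the median gene gives the spread of background signal.

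Against diluted adult cortex, amplified alike, most splicing factor genes were lower in JG cells and fewer were in MM cells. Both comparisons share the 3 diluted libraries, so their values are given side by side and nothing is read from their likeness. Receptor signal was higher in cells than in diluted cortex by 1.03 (JG) and 0.82 (MM), and counts are again of genes at least 1 log2 unit beyond that shift. In JG cells, 39 of the 46 genes were lower than in diluted cortex (40.8% of all genes) and 1, Tra2a, was higher (0.582% of all genes). The median difference was -2.10, against 0.56 over all genes. In MM cells, 19 were lower (37% of all genes) and 2, Snrpa and Srsf9, were higher (0.782% of all genes), with a median difference of -0.03 against 0.42. These counts moved with the scaling: after quantile normalization 13 members were higher and 6 lower in MM cells, and the JG median beyond the receptor shift went from -3.13 to -1.66. Without MM cell 15 there were 4 higher, and without MM cell 16 there were 5 higher and 12 lower. In diluted cortex 42 of the 46 were above background, against 48.2% to 50.4% of all genes. A gene at background there has little room to be lower, so the shares of all genes are low bases for these counts. Over all genes, 8135 were lower in JG cells and 7370 in MM cells, beside 9138 above background in all 3 diluted libraries. The share lower among those 9138 was not counted. The proximal tubule markers moved with both comparisons: 10 of 10 were above background in diluted cortex (summed level 113.6 to 114.2), and 0 to 3 of 10 in cells (61.9 to 70.2). Their part in these differences was not tested, nor was that of the amount of RNA that entered each amplification. In a mixed tissue, fewer cells of a type and less RNA per cell cannot be told apart.

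**Figure D4:**
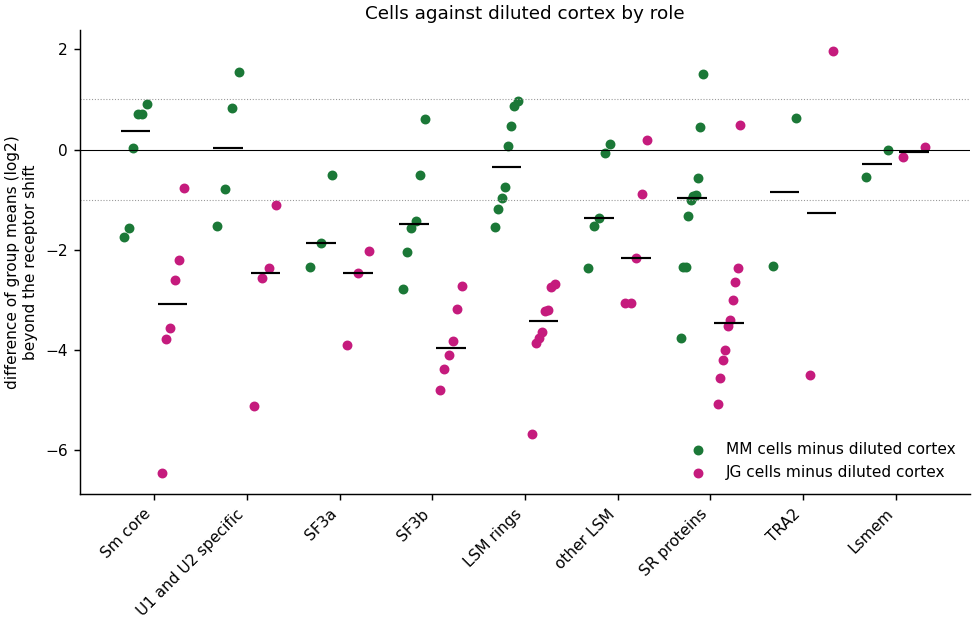
Difference of group means from diluted cortex beyond the receptor shift (log2, y axis) for each gene (points) by role, for MM cells (green) and JG cells (magenta), with the median of each role (black bar) and dotted lines at 1 and -1. The JG medians lie at or below -2.16 for the Sm core, U1 and U2 proteins, SF3a, SF3b, both LSM groups and SR proteins, and the MM medians range from -1.87 to 0.37.

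Snrpe was the member farthest below diluted cortex in JG cells (10.41 to 10.46 in diluted libraries, a difference of -5.42), and it was 1.73 above it in MM cells with no overlap. The other members farthest below in JG cells were Lsm6 (-4.65), Snrpa1 (-4.09), Srsf3 (-4.04) and Sf3b5 (-3.78). In MM cells these genes differed from diluted cortex by -0.73 (Lsm6), 0.03 (Snrpa1), -1.53 (Srsf3) and 0.31 (Sf3b5). Every JG cell lay below every diluted library for 25 of the 46 genes (29.3% of all genes), and every MM cell did so for 4 (24% of all genes). Every JG cell lay above every diluted library for 5 (49.8% of all genes), and every MM cell for 11 (47% of all genes).

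At the upper end, Snrpa measured 9.00, 9.47 and 9.12 in diluted libraries A, B and C, below every MM cell, and the difference was 2.37 in MM and -0.09 in JG cells. Srsf9 measured 9.47, 9.56 and 9.57 in diluted libraries, which lay between the MM and the JG cells, with differences of 2.33 and -2.98. Further U1, Sm and LSM genes above diluted cortex in MM cells were Lsm5 (1.78), Lsm7 (1.70), Snrpc (1.65) and Snrpg (1.52), all within 1 log2 unit of the receptor shift. Tra2a was 1.45 higher in MM and 2.99 higher in JG cells on the probe set used, against -2.13 and -2.15 on the probe set that lists RefSeq mRNAs. Srsf12 and Lsm14b were 1.51 and 1.21 higher in JG cells, with all values at background in both groups.

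SR proteins held the member farthest below diluted cortex in MM cells. Srsf5 measured 8.35, 8.33 and 8.30 in diluted libraries and differed by -2.49 in JG cells and -2.94 in MM cells, with no overlap. Next in MM cells were Sf3b1 (-1.96), Lsm12 (-1.54), Srsf10 (-1.53) and Srsf3 (-1.53). JG cells were lower too in these genes (-3.08, -1.14, -3.18 and -4.04). On the second Srsf10 probe set the MM difference was 0.32, with means of 6.04 in MM cells and 5.72 in diluted cortex, both below background. By role, 8 of 8 LSM ring genes, 6 of 6 SF3b, 9 of 10 SR, 5 of 6 Sm core, 4 of 4 U1 and U2 and 3 of 3 SF3a genes were lower in JG cells. In MM cells the same roles had 2, 4, 4, 2, 1 and 2 lower. Sf3b4, counted as lower in JG cells, differed by 1.49 from diluted cortex on its second probe set (7.80 against 6.31). That is within 1 log2 unit of the receptor shift of 1.03, so it would not count as higher. Both means lay near background, which was 7.56 to 7.94 in JG cells and 6.19 to 6.30 in diluted libraries. JG cells 4 and 5 were above it, at 8.65 and 8.89. Over all genes 40.8% were lower in JG cells and 37% in MM cells, and the MM counts of the LSM rings, SR genes, Sm core and U1 and U2 proteins lay near or below that share. Both shares include the many genes at background in diluted cortex, and are low bases for counts by role.

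The last comparison sets diluted against standard-labelled libraries, both of adult cortex, which differ in the labelling method. No label ties a library to an animal, so differences between tissue samples cannot be told apart from it. Many genes of both signs passed: of 45 members bright enough to be tested (Srsf12 was not), 18 were higher in diluted cortex and 20 lower by limma's moderated test at an adjusted p under 0.05, and 7 did not pass. Over all 19531 probe sets tested, 38% were higher and 36.7% lower (74.7% in either direction), so most features passed and the members' shares lay near that. A closer base is the 12828 genes tested at their brightest probe set, of which 5463 were higher and 4189 lower. With a change of at least 1 log2 unit as well, 21 members passed, against 39.5% of probe sets tested. Leukocyte markers differed between these libraries too, with 4 of 5 above background in diluted (summed level 38.6 to 38.8) and 1 or 2 in standard-labelled libraries (30.8 to 31.5), and their part in these differences was not tested.

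The Sm ring held both ends. Snrpb measured 11.29, 11.29 and 11.32 in diluted and 7.21, 7.22 and 7.23 in standard-labelled libraries A, B and C. The groups were far apart with almost no spread, and the log2 fold change was 4.08 ± 0.08 (SE, adjusted p = 2.94e-08, 16.9-fold). Snrpd3 went the other way, at 7.79, 7.56 and 7.72 in diluted and 11.78, 11.64 and 11.74 in standard-labelled libraries. It was lower in every diluted library, by a log2 fold change of -4.03 ± 0.10 (adjusted p = 4.27e-08). Snrpe measured 11.78, 11.76 and 11.83 in standard-labelled libraries, above all diluted ones, and its log2 fold change was -1.36 ± 0.08 (adjusted p = 1.54e-06). Of the 6 Sm genes, 5 were lower in diluted cortex. Snrpd2 was the weakest of these at -0.35 ± 0.10 (adjusted p = 0.0155), and its call was lost when diluted library C or standard library B was left out.

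Among U1 and U2 proteins, Snrpc was higher in diluted cortex (1.68 ± 0.10, adjusted p = 2.23e-06) and Snrpb2 was lower (-1.26 ± 0.09, adjusted p = 3.88e-06). Sf3b4 was higher in diluted cortex by 2.86 ± 0.10 (adjusted p = 1.19e-07), at 10.02, 10.16 and 10.19 against 7.26, 7.17 and 7.37. Its second probe set gave the opposite sign, -0.66 (adjusted p = 0.00419). Sf3b1 was lower, at 8.33, 8.16 and 8.25 against 10.32, 10.24 and 10.40, by -2.07 ± 0.09 (adjusted p = 3.65e-07). Sf3a2 was the highest of SF3a (1.52 ± 0.10, adjusted p = 3.55e-06), and Sf3a3 did not pass (-0.11 ± 0.11, adjusted p = 0.417).

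In the LSM rings, 3 genes were higher and 5 lower in diluted cortex. Lsm4 measured 10.27, 10.28 and 10.17 against 7.84, 8.05 and 7.87 (2.32 ± 0.09, adjusted p = 2.43e-07), and Lsm1 followed (1.71 ± 0.09, adjusted p = 8.41e-07). Lsm3 measured 8.91, 8.76 and 8.88 against 10.87, 10.96 and 10.94 (-2.07 ± 0.09, adjusted p = 2.63e-07). For each of these the libraries of one method lay wholly apart from those of the other. Outside the rings, Lsm10 was higher by 1.46 ± 0.14 (adjusted p = 3.05e-05) and Lsm12 lower by -1.74 ± 0.10 (adjusted p = 1.29e-06).

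Of 9 SR genes tested, 4 were higher in diluted cortex and 5 lower. Srsf5 measured 11.87, 11.82 and 11.95 in standard-labelled libraries, so that every diluted library was lower (-3.55 ± 0.08, adjusted p = 3.94e-08), and its second probe set gave -3.56. Srsf6 was the highest (1.31 ± 0.10, adjusted p = 7.19e-06), and Srsf9 was higher by 0.88 ± 0.08 (adjusted p = 2.32e-05). Neither TRA2 gene passed, with Tra2a at 0.29 ± 0.12 (adjusted p = 0.0642) and Tra2b at 0.05 ± 0.09 (adjusted p = 0.647). The Tra2a call depended on the setting: it passed as higher on receptor-centred arrays (0.33, adjusted p = 0.043) and without standard library A (0.39, adjusted p = 0.0197), and as lower with the mean of its probe sets (-0.31, adjusted p = 0.012), where Tra2b passed too. The Tra2a probe set that lists RefSeq mRNAs was lower in diluted cortex by -0.36 (adjusted p = 0.0481). Of the 12 genes with several probe sets, 8 had 1 sign on all of them in this comparison, and Lsm5, Sf3b4, Tra2a and Tra2b had both. In the comparison of MM with JG cells, 11 of the 12 had 1 sign, and the exception was Tra2a. Against diluted cortex, with no receptor shift taken off, 10 of the 12 had 1 sign in either group of cells. The exceptions were Sf3b4 and Tra2a for JG cells, and Srsf10 and Tra2a for MM cells.

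**Figure D5:**
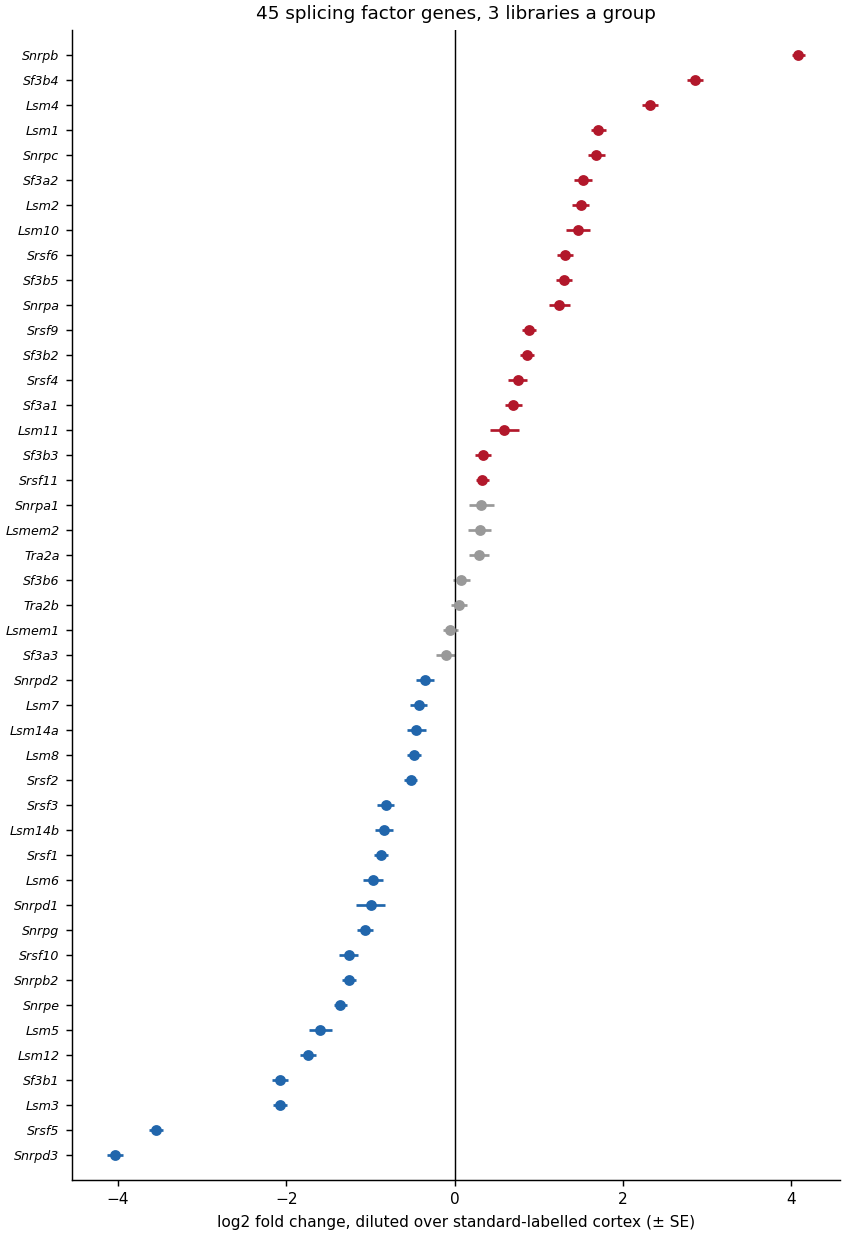
log2 fold change of diluted over standard-labelled cortex (x axis, points, with SE bars) for the 45 genes tested, ordered by size. Red and blue points passed an adjusted p of 0.05 as higher (18) or lower (20), grey points did not (7), and the range runs from -4.03 for Snrpd3 to 4.08 for Snrpb.

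Other genes of RNA processing were measured for 139 of 152 on 6 lists. The MM cells were higher than the JG cells in 21 of 50 further spliceosome genes and lower in 0, with Phf5a, a small SF3b partner, at a difference of 3.52 (11.15 ± 0.37 against 7.63 ± 1.87). Of 18 genes of snRNP assembly and transport, 11 were higher and 0 lower, led by Gemin7 of the SMN complex (3.65). Of 5 measured exon junction genes, 4 were higher, and Eif4a3, the RNA helicase at the core of that complex, was above background in 4 of 4 MM cells and 0 of 5 JG cells (10.99 ± 0.46 against 5.78 ± 0.82). Of 51 hnRNP and other regulators, 17 were higher and 1 lower, led by Hnrnpd (5.05). SR kinases and importers had 3 of 8 higher, and the minor spliceosome 5 of 7. These shares stand beside 10.8% of all genes higher and 0.732% lower.

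Against diluted cortex, JG cells were lower in 47 of 50 further spliceosome genes, 17 of 18 assembly genes, 7 of 7 minor spliceosome genes, 7 of 8 SR kinases and importers, 35 of 51 regulators and 5 of 5 exon junction genes. MM cells were lower in 39, 14, 5, 4, 22 and 2 of them. Over all genes 40.8% were lower in JG cells and 37% in MM cells, and the regulators and exon junction genes of MM cells lay near that share. Both shares include the many genes at background in diluted cortex, and are low bases for counts of these lists. In the comparison of cortex methods, 32 of 47 regulators tested were lower in diluted cortex and 6 higher, with Taf15, an RNA-binding protein, at 5.45 against 10.27 (-4.82 ± 0.10, adjusted p = 3.19e-08). Further spliceosome genes had 15 of 50 higher and 23 lower, with Puf60, which helps to recruit U2, at 3.20 ± 0.14 (adjusted p = 3.61e-07). Assembly genes had 7 of 18 higher and 6 lower, SR kinases and importers 1 and 6 of 8, the minor spliceosome 3 and 2 of 7 and exon junction genes 2 and 1 of 5. Of all probe sets tested, 38% were higher and 36.7% lower, and of 12828 genes tested at their brightest probe set 5463 were higher and 4189 lower.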

How the data were processed

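Per the submitters' processing notes, the authors used Affymetrix Expression Console. They deposited log2 signals per probe set for 15 arrays. Its version, its summary method and how arrays were scaled are not stated in these sources. Arrays have no count depth, and their number limits the precision. Probe sets with 1 symbol in the platform annotation were named, and 46 of 46 members matched RefSeq by gene ID (GRCm38.p6).

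Members and lists were chosen with earlier results of these data known. The text gives values for every member at need, and in each comparison for Snrpe, Srsf9, Tra2a, the 5 highest and 5 lowest members, the ends of each role, and up to 4 genes of other lists.

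Cells were compared by differences of group means with SDs, with no test. The receptor shift is the median difference over 1193 receptor probe sets. Cortex was tested with limma 3.58.1 (lmFit, eBayes) in R 4.3.3, Benjamini-Hochberg adjusted over all probe sets whose brighter group mean reached the median of all values; the test was checked on simulated data. No label ties a library to an animal, and the p-values therefore describe the spread of these libraries alone, possibly a technical one. The check used did not settle whether replicate letters pair libraries, and they were not taken to pair them. Python 3.11.15, numpy 2.4.6, pandas 2.3.3 and matplotlib 3.10.9 did the rest.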

Additional observations from a re-analysis of the deposited data

Results flagged for a closer look

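In 17 of 92 gene and cell group pairs, 1 cell stood apart from the others by Dixon's ratio, where chance flags about 1 in 20 groups. Genes on 1 array are not independent.

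JG cell 7 stood apart for 6 genes. Lsm1 measured 9.82 there (5.21 to 6.21 in the other JG cells), Lsm2 7.23 (5.74 to 6.15), Lsm5 11.84 (5.03 to 5.68), Snrpd3 6.38 (5.99 to 6.09), Srsf1 7.32 (5.58 to 6.01) and Srsf3 10.14 (6.25 to 7.08). Of these, Lsm2, Snrpd3 and Srsf1 did not reach the background level of the array.

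JG cell 6 stood apart for 5 genes. Lsm8 measured 13.23 there (5.70 to 6.07 in the others), Lsm10 11.20 (6.23 to 6.75), Snrpg 12.90 (6.43 to 7.10), Snrpb2 12.72 (6.35 to 7.11) and Sf3b5 11.26 (5.98 to 6.64).

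In JG cell 4, Tra2a measured 13.25 (9.31 to 9.84 in the others) and Sf3b6 11.42 (4.50 to 6.17). In JG cell 5, Snrpd1 measured 12.38 (7.97 to 8.92) and Sf3b4 9.89 (7.30 to 7.81). In JG cell 8, Snrpd2 measured 13.24 (6.69 to 7.77). Among MM cells the single case was Srsf2 in cell 16, at 8.02 against 11.29 to 11.79. The Tra2a value of JG cell 4 was seen on both probe sets without RefSeq mRNAs (13.25 and 13.16) and not on the one with them (5.53).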

How the results depend on the processing

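Alternatives changed the array scaling, the summary of cells, the choice of probe set, the background percentile and the samples used. JG cells stayed lower than diluted cortex in the median member, beyond the receptor shift by -3.13 as reported, -1.66 after quantile normalization, -2.61 on median-centred arrays, -3.71 with group medians, -3.03 with the mean of all probe sets, -2.10 with no shift taken off, -2.56 without JG cells 4 and 5 (added after the data were seen) and -3.27 to -2.83 without each cell in turn. The count of members higher than diluted cortex depended on scaling. In JG cells, 1 became 3 (quantile), 4 (no shift) or 0 (mean of probe sets). In MM cells, 2 became 13 (quantile), 10 (median-centred), 12 (no shift), 8 (group medians) or 4 (mean of probe sets), and 2 to 5 without each cell, with 4 without cell 15 and 5 without cell 16. MM cells lower than diluted cortex, 19, became 6 (quantile) or 9 (no shift), and 12 to 24 without each cell, with 12 without cell 16. The cause of these moves was not tested. The 36 members higher in MM than in JG cells were 32 to 37 without each cell, and the 1 lower became 0 with group medians, with the mean of probe sets, without JG cell 4 and without JG cells 4 and 5 (0 to 1 without each cell). At the 95th receptor percentile, 16, 12 and 18 members were above background in JG cells 4, 5 and 8, beside 25.1%, 29% and 37.1% of all genes.

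In cortex, 18 higher and 20 lower became 11 and 10 with a change of at least 1 log2 unit, and 18 to 20 and 19 to 20 without each library. Tra2a turned to -0.31 (adjusted p = 0.012 by limma) with the mean of its probe sets, where Tra2b was gained. Quantile normalization lost Srsf11 and Sf3b3. Same-lettered libraries correlated by 0.13 (A), 0.13 (B) and 0.03 (C) in their deviations. Diluted A and B each correlated best with the standard library of their letter, and diluted C with standard B (0.04). This does not settle the pairing, and the letters were not taken to pair libraries. A replicate block left 18 higher and 20 lower.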
